A study of Mus musculus with 18 samples.

Results

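The α-globin locus of mouse chromosome 11 was viewed from a CTCF-bound boundary element, HS-38, and from an enhancer, R1, in the same WT Ter119+ primary erythroid cells. NG Capture-C, a chromosome conformation method, counts unique ligation junctions (interactions) between a captured DpnII restriction fragment, the viewpoint, and every other fragment. The members were the 3 WT samples of the first experiment, out of 18 samples in the series, and from each the counts of both viewpoints were taken, giving 6 sets of counts. All were C57BL/6 adult mice with a WT genotype, treated with phenylhydrazine, which destroys red cells and fills the spleen with erythroid precursors, so that stress erythropoiesis and not resting bone marrow was profiled. Ter119+ cells were selected from spleen on magnetic columns, and the 3 samples are biological triplicates. Both viewpoints were captured from the same 3C material, so that each sample gave a pair. The data hold no expression or protein values, and the cell type could therefore not be checked against its markers here. A further 3 samples of the first experiment, ∆44/48, came from mice with deletions at the CTCF sites HS+44 and HS+48. These ∆44/48 samples were not members and entered only where they are named.

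CTCF is a zinc finger protein that binds DNA in an oriented manner and halts the loop-extruding cohesin complex, and pairs of CTCF sites often mark the ends of topologically associating domains (TADs), within which sequences contact each other more than those outside. In erythroid cells the α-globin genes lie in a small domain (sub-TAD) together with their enhancers R1, R2, R3 and Rm, which sit in introns of *Nprl3*, and R4, which lies between *Nprl3* and the embryonic gene *Hba-x*. HS-38 lies at the 5′ end of this sub-TAD, and the comparison asks in which direction, and how far, a boundary element and an adjacent enhancer contact their surroundings.

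The HS-38 viewpoint fragment (mm9, chr11:32138079-32139000, 922 bp) and the R1 viewpoint fragment (chr11:32145277-32146568, 1292 bp) are separated by 6276 bp, and both lie within *Nprl3*, a gene on the minus strand. Stretches of both are shown because they are the places from which all contacts below were read. A pattern of 8 fixed letters from the core of the CTCF motif (CC, AGG and GGC in this order, with unfixed letters between them) was searched on both strands. The HS-38 fragment held no full match, and its closest stretch, which is intronic, matched 7 of the 8 letters (capitals). The region over which the study counted cohesin reads at the HS-38 CTCF site lies upstream of this fragment. The stretch can therefore not be taken as the bound site. A full match was present in 2.81% of all windows of the same length on the chromosome, and a match of at least 7 letters in 44.1%. The R1 fragment held 3 copies of AGATAA, the letters bound by the erythroid regulator GATA1, counted on both strands, and 6.60% of windows of its length held as many. The HS-38 fragment held 0 copies, against at least 1 in 43.8% of windows of its length. The R1 stretch, also intronic, shows 2 of the copies in capitals, the second of them on the minus strand and thus read here as TTATCT.
HS-38, chr11:32138634-32138693, plus strand: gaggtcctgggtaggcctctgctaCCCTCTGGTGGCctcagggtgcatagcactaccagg
R1, chr11:32145737-32145885, plus strand: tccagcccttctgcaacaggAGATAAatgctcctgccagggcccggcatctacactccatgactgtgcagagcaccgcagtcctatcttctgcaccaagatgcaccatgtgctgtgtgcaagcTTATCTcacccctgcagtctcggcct

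Further CTCF sites lie downstream of R1, of which θ1 (between *Hba-a1* and *Hba-a2*), θ2, HS+44 and HS+48 are named in the study. They are shown because they are the far ends of the contacts described below, with full matches of the CTCF pattern in capitals, on the strand that carries the match. The sites at θ1 and θ2 lie just upstream of the θ-like globin genes *Hbq1b* and *Hbq1a*, in duplicated sequence, and their 30 bases were identical at 30 of 30 positions. The HS+44 sites are intergenic. All 4 matches at θ1, θ2 and HS+44 were on the minus strand. The fragment over HS+48 held no full match, so that none is shown for it.
θ1, chr11:32186925-32186954, minus strand: cacaagaggCCGCCAGGGGGCgctgcatcg
θ2, chr11:32200030-32200059, minus strand: cacaagaggCCGCCAGGGGGCgctgcatcg
HS+44, chr11:32221328-32221357, minus strand: gagagtgggCCCCAAGGTGGCgccactggc
HS+44, chr11:32221386-32221415, minus strand: ttatagtggCCTGCAGGGGGCgccccagag

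HS-38 gave 89329 to 108441 counts per sample and R1 gave 104002 to 122476, of which 72.0 to 76.8% were on chromosome 11 (in cis) over both viewpoints. Counts within 1000 bp of either viewpoint fragment were left out for both, and these made up 25.3 to 26.6% of the cis counts of R1 and 2.90 to 2.94% of those of HS-38. The remaining cis counts, 66422 to 75816 for HS-38 and 58158 to 66214 for R1, set the scale, and densities are given as counts per kb per 100000 of them. Of 295450 DpnII fragments of the chromosome, 61258 held at least 1 count in these 6 sets. Every pair of samples of a viewpoint differed beyond counting error, with a chi-square of 1.54 to 1.95 per degree of freedom, so no sample was a second deposit of another.

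R1 had a larger share of its contacts on the side of the globin genes than HS-38 had. Upstream of the HS-38 fragment lay 41.9, 42.4 and 43.2% of the HS-38 counts in samples 1, 2 and 3, and 53.9, 53.4 and 52.9% lay downstream of the R1 fragment. For R1 the upstream shares were 26.1, 28.1 and 29.0%, and the downstream shares 70.7, 68.9 and 68.1%. The rest, 3.95 to 4.19% from HS-38 and 2.87 to 3.15% from R1, lay between the viewpoints, on the downstream side of HS-38 and the upstream side of R1. The ranges of the viewpoints did not overlap on either side. The log2 ratio of downstream to upstream counts was 0.33 ± 0.03 (SD, n = 3) from HS-38 and 1.32 ± 0.10 (SD, n = 3) from R1, and their difference was -0.99 ± 0.07, lower from HS-38 in 3 of 3 samples. The two-sided exact sign-flip permutation test gave p = 0.25, the smallest that 3 pairs allow. Within 1 Mb of the viewpoints, where 68.6% ± 0.92 of the HS-38 counts and 68.4% ± 1.81 of the R1 counts fell (SD, n = 3), the contrast was wider. There the log2 ratio was 0.07 ± 0.03 from HS-38 and 1.50 ± 0.12 from R1, and the difference was -1.44 ± 0.09 (SD, n = 3).

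The larger TAD (about chr11:32080071-32244878 in whole fragments) held 55.2% ± 1.47 of the HS-38 counts and 58.4% ± 2.56 of the R1 counts, in 0.126% of the covered length of the chromosome (SD, n = 3). Inside it the viewpoints differed in where the counts lay. The part upstream of HS-38 held 23.2, 22.3 and 22.4% of the HS-38 counts and 10.1, 9.98 and 10.5% of the R1 counts. The part of the sub-TAD downstream of R1, with the other enhancers and the globin genes, held 20.0, 19.1 and 18.8% of the HS-38 counts and 42.3, 38.5 and 37.5% of the R1 counts. Between the 3′ ends of the sub-TAD and the TAD the order turned again, with 9.30, 9.19 and 8.81% from HS-38 and 5.78, 5.98 and 5.61% from R1. In none of these 3 places did the samples of HS-38 and R1 overlap.

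**Figure D1:**
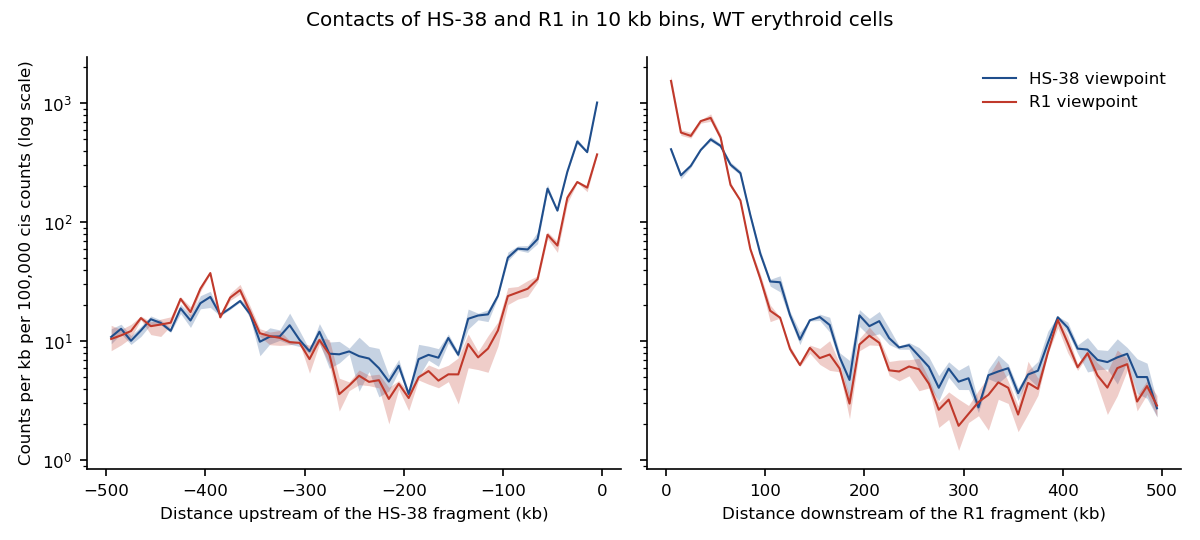
Contact density (counts per kb per 100000 cis counts, log scale) in 10 kb bins against the distance upstream of the HS-38 fragment (left, kb) and downstream of the R1 fragment (right, kb). Lines are means of 3 WT samples and bands their range. HS-38 lies above R1 over the first 100 kb upstream. R1 lies above HS-38 over the first 60 kb downstream, where the lines cross and HS-38 lies above R1.

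To place these differences, the chromosome was divided into 18 consecutive intervals, ending at domain ends, genes, viewpoints and CTCF sites. In each, the counts of both viewpoints were compared by edgeR's quasi-likelihood test, the sample being a block, and an adjusted p (Benjamini-Hochberg) below 0.01 was called. Of the 18 intervals 15 were called (83.3%), of which 12 were higher from HS-38 (66.7% of all) and 3 higher from R1 (16.7%). All 3 intervals higher from R1 were the enhancer and gene part of the sub-TAD, and the other called intervals lay on both sides of it.

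The interval of the remaining enhancers in *Nprl3* (chr11:32148396-32167509) differed most. Its density was 327, 319 and 305 from HS-38 and 1052, 938 and 914 from R1 in samples 1, 2 and 3. HS-38 was the lower viewpoint in every sample here, with a log2 fold change of HS-38 over R1 of -1.61 (SE 0.04, edgeR's quasi-likelihood test, adjusted p = 5.7e-32). Over R4 and *Hba-x* (chr11:32167510-32182970) the densities were 314, 301 and 294 from HS-38 and 523, 482 and 484 from R1. This was a log2 fold change of -0.71 (SE 0.04). Over the adult α-globin genes with *Hbq1b* and *Hbq1a* (chr11:32183820-32203107) they were 499, 469 and 468 from HS-38 and 810, 755 and 719 from R1, a log2 fold change of -0.67 (SE 0.03). From HS-38 the globin gene interval was thus denser than the enhancer interval, which lies nearer to it, in 3 of 3 samples. From R1 the enhancer interval was the denser in 3 of 3.

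On the near side of R1 and upstream of HS-38 the direction was the opposite. The interval between the viewpoints (chr11:32140708-32144132) had densities of 1224, 1213 and 1155 from HS-38 and 919, 867 and 838 from R1, with a log2 fold change of 0.45 (SE 0.05). The *Mpg* interval with the 3′ end of *Nprl3* (chr11:32122091-32136424) had densities of 715, 709 and 696 from HS-38 and 292, 271 and 286 from R1. The log2 fold change was 1.32 (SE 0.04, edgeR's quasi-likelihood test, adjusted p = 6.5e-27). The *Snrnp25* and *Rhbdf1* interval (chr11:32104923-32122090) had densities of 470, 433 and 448 from HS-38 and 213, 216 and 227 from R1, with a log2 fold change of 1.04 (SE 0.04). In the *Il9r* segment, the most 5′ interval of the TAD (chr11:32080071-32104922), they were 198, 190 and 189 from HS-38 and 89.5, 95.8 and 99.7 from R1, with a log2 fold change of 1.02 (SE 0.05). The excess continued outside the TAD, where the stretch up to 0.25 Mb upstream had 19.8, 19.8 and 22.2 from HS-38 and 9.86, 10.8 and 10.8 from R1, a log2 fold change of 0.97 (SE 0.05). It was no longer called from 0.25 to 1 Mb upstream (log2 fold change 0.02, SE 0.05) or beyond (0.04, SE 0.04).

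Downstream of the sub-TAD the contacts of HS-38 were again the denser on the cis scale. The flank next to the sub-TAD (chr11:32203108-32218901) had 365, 363 and 347 from HS-38 and 244, 253 and 231 from R1, with a log2 fold change of 0.56 (SE 0.05). The interval of HS+44 and HS+48 (chr11:32218902-32227379) had 239, 227 and 218 from HS-38 and 134, 130 and 134 from R1, with a log2 fold change of 0.78 (SE 0.06, edgeR's quasi-likelihood test, adjusted p = 1.3e-14). No sample of R1 reached any sample of HS-38 in either interval. The log2 fold change was 0.91 (SE 0.07) from HS+48 to HS+65, 0.64 (SE 0.08) at HS+65/+66, 0.85 (SE 0.06) over *Sh3pxd2b* outside the TAD, and 0.62 (SE 0.07) from there to 0.25 Mb. From 0.25 to 1 Mb downstream it was 0.35 (SE 0.06), and beyond 1 Mb it was -0.03 (SE 0.03) and not called.

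These values rest on the cis total as the scale, under which both intervals beyond 1 Mb differed little, the upstream one holding 10.2 to 11.6% of the HS-38 counts and 9.71 to 11.4% of the R1 counts and the downstream one 20.1 to 20.6% and 19.8 to 21.6%. With DESeq2, which changes the test as well as the size factors, the median interval moved by -0.58 on the log2 scale. Then the interval between the viewpoints stood at -0.13, the downstream flank at -0.02 and the stretch from 0.25 to 1 Mb downstream at -0.23. HS+65/+66 (0.06) and the stretch to 0.25 Mb downstream (0.04) were no longer called, while the far upstream interval stood at -0.55, and of 13 called intervals 7 were higher from HS-38 and 6 from R1. With TMM factors the median interval moved by -0.33, and of 16 called intervals 10 were higher from HS-38 and 6 from R1. Under both, all 3 intervals of the TAD upstream of HS-38 were still called higher from HS-38, as were HS+44/+48 and the interval beyond it, and the 3 enhancer and globin intervals were still called higher from R1.

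**Figure D2:**
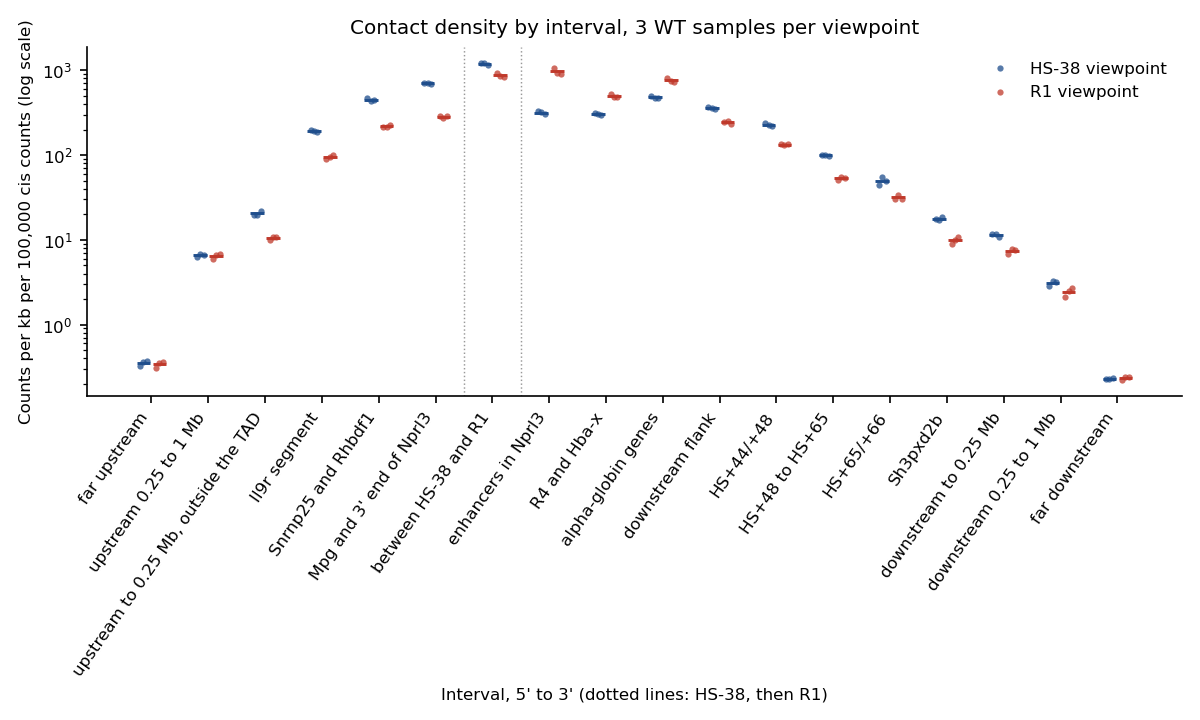
Contact density (counts per kb per 100000 cis counts, log scale) in the 18 intervals in 5′ to 3′ order, with a point for each of 3 WT samples, a bar for their mean, HS-38 in blue and R1 in red. Dotted lines mark the places of HS-38 and R1. R1 lies above HS-38 in the 3 intervals after the second line, and HS-38 above R1 in the 12 other called intervals on the cis scale, of which DESeq2's size factors turned 3.

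The fall of density from an inner to an outer interval was compared at the ends of the domains. At the 5′ end of the TAD, the density of the *Il9r* segment over that of the outer stretch to 0.25 Mb was 9.35-fold from HS-38 and 9.05-fold from R1. On the log2 scale these were 3.23 ± 0.12 and 3.18 ± 0.02 (SD, n = 3), and the samples of the viewpoints overlapped. The outer interval is longer and lies farther away, and the part of distance in this fall was not tested. At the 3′ end of the sub-TAD, the density of the globin gene interval over that of the downstream flank was 1.34-fold from HS-38 and 3.14-fold from R1. The log2 values were 0.45, 0.37 and 0.43 from HS-38 and 1.73, 1.58 and 1.64 from R1, without overlap, and their difference was -1.23 ± 0.04 (SD, n = 3). The fall from the downstream flank to the interval beyond HS+48, with HS+44 and HS+48 between them, was 3.61-fold from HS-38 and 4.58-fold from R1, a log2 difference of -0.35 ± 0.08 (SD, n = 3). At the 3′ end of the TAD the falls were 2.77-fold and 3.22-fold, and the samples overlapped. Across R1 the density from HS-38 was 3.77-fold lower in the enhancer interval than between the viewpoints, while that from R1 was 1.11-fold higher. From HS-38 both intervals lie downstream and the enhancer interval is the farther, whereas from R1 they lie on either side of it. Across HS-38 the density between the viewpoints exceeded that of the *Mpg* interval 1.69-fold from HS-38 and 3.09-fold from R1. From R1 the *Mpg* interval is the farther on the same side. The part of distance in these ratios was not tested. From HS-38 the fall at the sub-TAD end was smaller than that from the flank to beyond HS+48 in 3 of 3 samples. From R1 it was also smaller in 3 of 3, but by less. The latter fall spans the interval of HS+44 and HS+48. From that interval to the adjacent one beyond it, the log2 fall was 1.24, 1.19 and 1.17 from HS-38 and 1.41, 1.23 and 1.34 from R1. Against this adjacent step the fall at the sub-TAD end was still smaller from HS-38, but larger from R1, in 3 of 3 samples each.

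**Figure D3:**
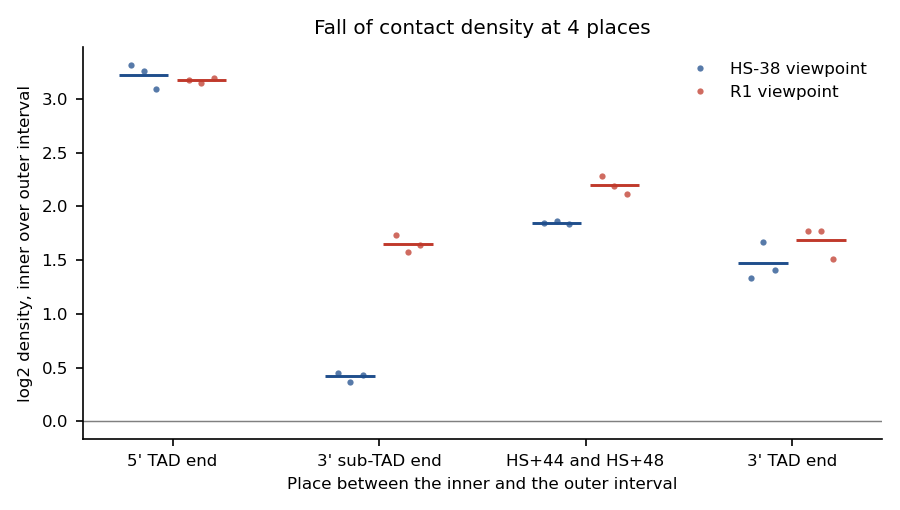
Fall of contact density at 4 places, as the log2 ratio of the density of the inner interval over that of the outer interval, for HS-38 (blue) and R1 (red). Points are 3 WT samples and bars their means. The viewpoints lie together at the 5′ TAD end and apart at the 3′ sub-TAD end, with means of 0.42 and 1.65 there.

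The viewpoints lie 6276 bp apart, so the same place is nearer to either of them, and contacts fall with distance. Counts were therefore also compared in classes of equal distance, measured from the edge of each viewpoint's own fragment, of which 9 of 18 were called (50%), 7 higher from HS-38 (38.9%) and 2 higher from R1 (11.1%). With DESeq2, test and size factors together, 5 were higher from HS-38 and 6 from R1, and with TMM factors 5 and 8. A class does not cover the same sequence for both viewpoints, and at its edges the genomic places differ. Upstream, HS-38 was higher in all 5 classes from 10 to 320 kb. The class from 20 to 40 kb had densities of 385, 360 and 371 from HS-38 and 204, 205 and 216 from R1, with a log2 fold change of 0.84 (SE 0.03, edgeR's quasi-likelihood test, adjusted p = 0.00027). The class from 80 to 160 kb had 25.7, 24.8 and 25.4 from HS-38 and 13.0, 15.4 and 15.0 from R1, with a log2 fold change of 0.81 (SE 0.07). The log2 fold changes of the 10 to 20, 40 to 80 and 160 to 320 kb classes were 0.31 (SE 0.02), 0.67 (SE 0.04) and 0.49 (SE 0.06). The first was not called with DESeq2 (0.08) or TMM factors (0.03), nor was the last (0.26 and 0.22), which was also not called without sample 1.

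Downstream, at equal distance, the order turned once among the called classes. From 20 to 40 kb the densities were 281, 278 and 266 from HS-38 and 641, 606 and 592 from R1, a log2 fold change of -1.16 (SE 0.02, edgeR's quasi-likelihood test, adjusted p = 5.8e-05). From 40 to 80 kb, a class that holds both adult α-globin genes for HS-38 but not *Hba-a1* for R1, they were 426, 408 and 403 from HS-38 and 416, 394 and 374 from R1, and the log2 fold change of 0.06 (SE 0.02) was not called. From 80 to 160 kb they were 58.6, 57.2 and 57.3 from HS-38 and 18.3, 20.3 and 20.2 from R1. This was the widest excess of HS-38 among the classes, with a log2 fold change of 1.56 (SE 0.05, edgeR's quasi-likelihood test, adjusted p = 0.00014). The class holds the HS+44 and HS+48 fragments for HS-38, whereas for R1 they lie in the class from 40 to 80 kb. In the intervals from HS+44/+48 to *Sh3pxd2b*, which compare the same places, the log2 fold changes were 0.64 to 0.91. The class from 160 to 320 kb was still higher from HS-38 at 0.71 (SE 0.05), and the 320 to 640 kb class at 0.35 (SE 0.07) was not called. The latter was called with the counts within 1 Mb as scale (0.35), without the replicate block (0.35) and with a wider excluded zone (0.37). It was also called with R2 in place of R1 (0.55) and without sample 3 (0.44).

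Each viewpoint was also compared with itself across its sides. From 10 to 20 kb HS-38 had the same density on both sides within the spread of the samples, with a log2 ratio of downstream over upstream of -0.005 ± 0.053, while that of R1 was 0.86 ± 0.06 (SD, n = 3). From 20 to 40 kb HS-38 was denser upstream (-0.44 ± 0.06) and R1 downstream (1.56 ± 0.10), with no overlap of the samples. From 40 to 80 kb both were denser downstream, at 1.88 ± 0.04 from HS-38 and 2.48 ± 0.16 from R1. From 80 to 160 kb both remained denser downstream, HS-38 by 1.19 ± 0.02 and R1 by 0.44 ± 0.05 (SD, n = 3).

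**Figure D4:**
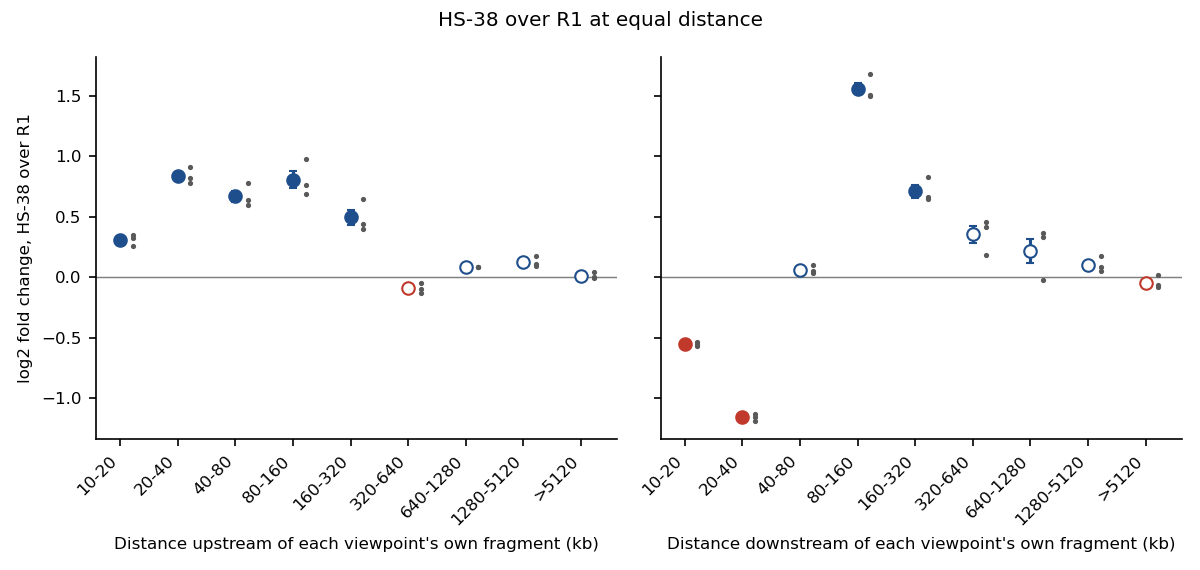
log2 fold change of HS-38 over R1 in classes of equal distance (kb) from each viewpoint's own fragment, upstream (left) and downstream (right). Large points are the fitted values with their SE, filled where the adjusted p was below 0.01, blue where HS-38 and red where R1 was higher, and small grey points are the ratios in 3 WT samples. The only filled red points are the 10 to 20 and 20 to 40 kb classes downstream.

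The reach of the contacts, again measured from each viewpoint's own fragment, differed on both sides. Within 1 Mb, 50% of the upstream counts lay within 26.7, 27.4 and 27.6 kb of HS-38 and within 43.2, 47.0 and 45.5 kb of R1. Downstream, 50% lay within 56.1, 56.6 and 56.6 kb of HS-38 and within 32.8, 35.3 and 34.6 kb of R1. The distance that held 90% of the downstream counts was 169 kb ± 13.6 from HS-38 and 74.0 kb ± 2.82 from R1 (SD, n = 3). That which held 90% of the upstream counts was 391 kb ± 11.8 from HS-38 and 469 kb ± 9.34 from R1 (SD, n = 3). The samples of the viewpoints did not overlap in any of these 4 distances, and the exact permutation test gave p = 0.25 for each, the smallest possible. Over the whole chromosome the distances that held 50% were 51.7 kb ± 3.44 upstream and 86.9 kb ± 3.42 downstream from HS-38, and 394 kb ± 16.8 upstream and 48.3 kb ± 2.41 downstream from R1 (SD, n = 3).

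At the level of single genes, counts were summed over gene bodies, and 22 of 1005 genes of chromosome 11 were called (2.19%), 14 higher from HS-38 (1.39%) and 8 higher from R1 (0.796%). The median log2 fold change of all 1005 genes was -0.03. Of the 5 genes listed upstream of the globin genes, 4 were higher from HS-38 and 1 from R1, with a median log2 fold change of 0.95. Of the 5 globin genes, 4 were higher from R1 and 0 from HS-38, with a median of -0.48. Both genes listed downstream of the TAD were higher from HS-38.

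*Mpg* (chr11:32126505-32132700), which encodes a DNA glycosylase of base excision repair, had densities of 722, 716 and 710 from HS-38 and 316, 293 and 296 from R1. The log2 fold change was 1.25 (SE 0.05, edgeR's quasi-likelihood test, adjusted p = 5.7e-104). *Mpg* lies within the span of *Nprl3*, and the counts of both genes overlap. *Rhbdf1* (chr11:32109585-32122300), an inactive member of the rhomboid proteases, had 541, 494 and 504 from HS-38 and 231, 228 and 237 from R1, a log2 fold change of 1.14 (SE 0.05). *Il9r*, the interleukin 9 receptor, stood at 0.95 (SE 0.07), and *Snrnp25*, a protein of the minor spliceosome, at 0.67 (SE 0.07). The samples of the viewpoints did not overlap in any of these 4 genes.

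*Nprl3*, a subunit of the GATOR1 complex of nutrient sensing, spans both viewpoints and the enhancers. It had 602, 592 and 573 from HS-38 and 810, 731 and 719 from R1, with a log2 fold change of -0.35 (SE 0.04), and without sample 3 it was not called. *Nsg2*, a gene of neuronal vesicles outside the TAD, had 4.64, 5.49 and 7.02 from HS-38 and 4.14, 4.23 and 4.05 from R1. Its log2 fold change of 0.45 (SE 0.12, edgeR's quasi-likelihood test, adjusted p = 0.012) was not called. It was called with TMM factors (0.47), a minimum of 30 counts (0.45), a wider excluded zone (0.47) and R2 in place of R1 (0.78).

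The adult α-globin genes *Hba-a1* (chr11:32183511-32184465) and *Hba-a2* (chr11:32196489-32197301) encode the α chain of haemoglobin. *Hba-a1* had densities of 846, 793 and 727 from HS-38 and 1619, 1642 and 1622 from R1, with a log2 fold change of -1.05 (SE 0.07, edgeR's quasi-likelihood test, adjusted p = 4.3e-42). *Hba-a2* had 865, 795 and 758 from HS-38 and 1611, 1619 and 1601 from R1, with log2 ratios of -0.90, -1.03 and -1.08 in the samples. HS-38 was the lower in every sample at both genes. These genes are near-identical copies, in each of which 2 of 4 fragments held counts, so that reads of the copies may be shared and the values cannot be told apart between them.

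The embryonic ζ-like gene *Hba-x* had a density of 390 ± 1.70 from HS-38 and 524 ± 10.7 from R1 (SD, n = 3), with a log2 fold change of -0.42 (SE 0.08). It was not called without sample 1, without sample 3 or by DESeq2. *Hbq1b*, a θ-like globin gene next to θ1, had a log2 fold change of -0.48 (SE 0.08) and was not called without sample 1. Its copy *Hbq1a*, next to θ2, had 1249, 1343 and 1197 from HS-38 and 1738, 1369 and 1398 from R1, and its log2 fold change of -0.24 (SE 0.10, edgeR's quasi-likelihood test, adjusted p = 0.25) was not called. *Sh3pxd2b*, an adaptor protein of podosomes, had 16.2, 16.1 and 17.7 from HS-38 and 8.41, 9.37 and 10.0 from R1, a log2 fold change of 0.85 (SE 0.07). *Ubtd2*, which encodes a protein with a ubiquitin-like domain, stood at 0.60 (SE 0.10) and was not called without sample 1.

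**Figure D5:**
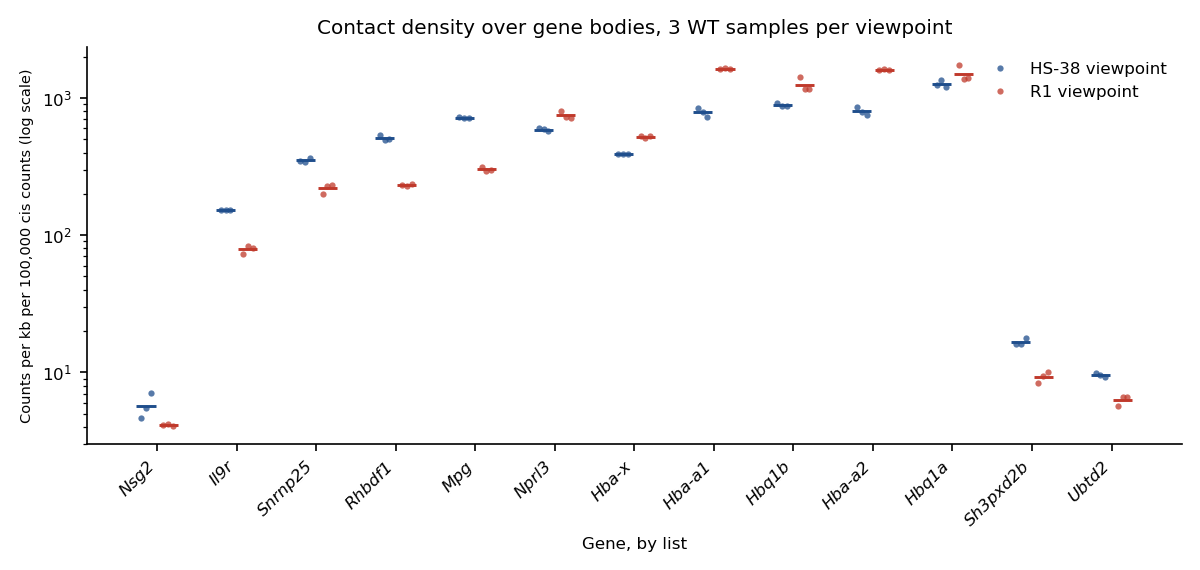
Contact density (counts per kb per 100000 cis counts, log scale) over the bodies of the 13 listed genes, with a point for each of 3 WT samples and a bar for their mean, HS-38 in blue and R1 in red. HS-38 lies above R1 from *Nsg2* to *Mpg* and at *Sh3pxd2b* and *Ubtd2*, and R1 lies above HS-38 from *Nprl3* to *Hbq1a*.

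Of the other called genes, 7 lay more than 1 Mb from the viewpoints, and all 7 reached into stretches in which a viewpoint had no count at all. *Nipsnap1*, which encodes a mitochondrial protein, had 17, 19 and 10 counts from HS-38 and 0, 0 and 0 from R1, which is at least 13.4-fold higher from HS-38 against a floor of 3 counts over the 3 samples of R1. *Pnpt1*, a mitochondrial RNA-processing enzyme, had 43, 34 and 42 counts from HS-38 and 8, 7 and 8 from R1. In the other direction *Wrap53*, a protein of Cajal bodies, had 0, 0 and 0 counts from HS-38 and 10, 2 and 11 from R1, at least 8.75-fold higher from R1. *Arhgap23*, a GTPase-activating protein, had 1, 1 and 0 from HS-38 and 12, 9 and 20 from R1, and *Specc1* had 73, 72 and 66 from HS-38 and 80, 124 and 111 from R1. These 3 genes higher from R1 were not called by DESeq2, without sample 1 or without sample 3, and *Nipsnap1* and *Pnpt1* were not called without sample 1. A search for runs of at least 30000 bp with no count from a viewpoint in any sample, and at least 20 from the other, found 11 such stretches for R1 with a median length of 43.7 kb and 10 for HS-38 with a median of 46.1 kb. In ∆44/48 cells, which the search did not use, they again held few counts, 37 of R1 against 551 of HS-38 in the former and 24 of HS-38 against 267 of R1 in the latter. Not every stretch did so, since that over *Mink1*, with no count from R1 in WT, held 13 of R1 against 11 of HS-38. The nearest of the stretches lay 3057 kb from the viewpoints. The stretches held 0.395% of the HS-38 counts and 0.209% of the R1 counts, and their cause was not tested. Outside them *Pnpt1* had 2, 1 and 7 counts from HS-38 and 8, 7 and 8 from R1, turned to R1 (-1.50) and was not called. Without these stretches 15 of 989 genes were called, the same 15 that were called within 1 Mb with them. *Stk10*, a kinase gene 294 kb downstream of HS-38, was one of them and higher from HS-38 at 0.54 (SE 0.11), but it was not called by DESeq2, without sample 1 or without sample 3.

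Single DpnII fragments gave the finest view. Of 2415 fragments with at least 10 counts, 259 were called (10.7%), 155 higher from HS-38 (6.42%) and 104 higher from R1 (4.31%). Inside the TAD 248 of 366 tested fragments were called (67.8%), outside it within 1 Mb 10 of 1449 (0.690%), and beyond 1 Mb 1 of 600 (0.167%). The balance of directions moved with the scale, since TMM factors gave 100 and 123 calls for HS-38 and R1. DESeq2, which changes the test as well as the size factors, gave 44 and 117, with a shift of the median fragment of -0.36. The calls fell into blocks. In the *Mpg* interval all 28 fragments tested were higher from HS-38, as were 40 of 46 in the *Snrnp25* and *Rhbdf1* interval and 40 of 65 in the *Il9r* segment. In the enhancer interval 47 of 49 were higher from R1, with 24 of 41 over R4 and *Hba-x* and 32 of 37 over the adult globin genes. From the sub-TAD end to HS+65 only HS-38 was called the higher, in 16 of 46 fragments of the flank, 10 of 16 at HS+44/+48 and 7 of 25 beyond. The number of fragments called depended on having all 3 samples. It fell to 4 without sample 1, to 0 without sample 2 and to 97 without sample 3. Without sample 2, edgeR's quasi-likelihood test gave 367 fragments with an unadjusted p below 0.05 and 101 with an adjusted p below 0.05.

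The fragments with the smallest adjusted p in each direction lay close to the viewpoints. Upstream, a fragment in an intron of *Nprl3* (chr11:32135766-32135979), 2.10 kb from HS-38 and 9.30 kb from R1, had 433, 506 and 444 counts from HS-38 and 80, 96 and 110 from R1. Its log2 fold change was 2.08 (SE 0.12, edgeR's quasi-likelihood test, adjusted p = 1.8e-10). The other 4 upstream fragments named by the same rule lay 1.66 to 6.93 kb from HS-38, with log2 fold changes of 1.53 to 1.76. Between the viewpoints 4 of 6 fragments were called, all higher from HS-38, and the one nearest to it (chr11:32140708-32140852) stood at 1.03 (SE 0.10). The other 3 were not called by DESeq2 (0.35, 0.10 and 0.05), and 2 of them were not called with TMM factors (0.12 and 0.07) or with a minimum of 1 count. The same 4 fragments were 3.22 to 4.43 kb from R1 and 1.71 to 2.86 kb from HS-38. Downstream of R1 an intronic fragment (chr11:32149641-32149927), 3.07 kb from R1 and 10.6 kb from HS-38, had 141, 139 and 152 counts from HS-38 and 711, 657 and 614 from R1, with a log2 fold change of -2.39 (SE 0.11, edgeR's quasi-likelihood test, adjusted p = 9.0e-12). At each of these places the nearer viewpoint had the more counts. The single call upstream in favour of R1, an intronic fragment of *Asb3* 1237 kb away, rested on 1, 2 and 1 counts from HS-38 and 13, 8 and 17 from R1.

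Beyond the globin genes R1 is the nearer viewpoint to every fragment, and the part of distance in the order there was not tested. Of the fragments downstream of R1, that with the smallest adjusted p in favour of HS-38 was the intergenic fragment over HS+48 (chr11:32224325-32227296), 77.8 kb from R1 and 85.3 kb from HS-38. It had 119, 116 and 109 counts from HS-38 and 55, 49 and 46 from R1, with a log2 fold change of 1.01 (SE 0.15, edgeR's quasi-likelihood test, adjusted p = 6.7e-05). The fragment over HS+44 (chr11:32220920-32221718) had 129, 130 and 109 counts from HS-38 and 60, 74 and 60 from R1, with a log2 fold change of 0.73 (SE 0.15). No sample of R1 reached any sample of HS-38 at either site. The DESeq2 fit did not call HS+48 (0.64) or HS+44 (0.37), and with TMM factors HS+44 (0.39) was not called. The fragment over θ1 (chr11:32186469-32187032) went the other way, with 254, 248 and 265 counts from HS-38 and 333, 353 and 294 from R1. Its log2 fold change was -0.54 (SE 0.11). The θ1 fragment stayed called by DESeq2 (-0.91) and with TMM factors (-0.89). It was not called with a minimum of 1 count (-0.54) or with R2 in place of R1 (-0.12). At θ2 (chr11:32199493-32200137) the counts were 275, 284 and 262 from HS-38 and 288, 273 and 228 from R1, the scaled values overlapped, and the log2 fold change of -0.13 (SE 0.10, edgeR's quasi-likelihood test, adjusted p = 0.65) was not called. By DESeq2 and with TMM factors θ2 was called and higher from R1, at -0.50 and -0.47.

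The CTCF pattern was present in few of the called fragments. Of all 2415 fragments tested, 2.82% held a full match, as did 4.92% of the 366 inside the TAD. Of those called inside the TAD, 7 of 145 higher from HS-38 (4.83%) and 6 of 103 higher from R1 (5.83%) held a match. In all 18 tested fragments in the TAD held a match, and no test was made of these shares.

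The same comparison in the 3 ∆44/48 samples, mice with deletions at HS+44 and HS+48, shares no sample with WT. All 15 intervals called in WT were called there in the same direction. The difference in the log2 ratio of downstream to upstream counts was -0.92 ± 0.09 (SD, n = 3), beside -0.99 ± 0.07 in WT. The interval of HS+44 and HS+48 stood at 0.59 (SE 0.11) in ∆44/48 and at 0.78 (SE 0.06) in WT, a difference that was not tested here. Sample 1 of ∆44/48 was shallow, with 37651 counts from HS-38 against 80269 and 85491, and without it the interval stood at 0.55 (SE 0.13) and all 15 intervals were again called in the same direction. Without sample 3 of ∆44/48, 12 were.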

How the data were processed

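Reads had been processed by the authors with Trim-galore, FLASH, an in silico DpnII digest and Bowtie (mm9), and duplicates from PCR were discarded. The authors deposited unnormalised counts, 1 for each unique interaction of a viewpoint with a DpnII fragment, and a table of viewpoint positions. Fragments without a count are not listed. All listed fragments used here were fragments of a DpnII digest of NCBIM37 (0 exceptions). Fragments within 1000 bp of HS-38 or R1 and all other captured fragments were left out (22 in all). Fragments with at least 10 counts over the 6 sets were tested with edgeR 4.0.16 in R 4.3.3, with the sample as a block, library sizes set to the cis counts outside these zones, and p-values adjusted (Benjamini-Hochberg) over every feature of a kind. The threshold of 0.01 is that of the study's methods. SEs are the absolute log2 fold change over the square root of the F statistic. DESeq2 1.42.0 was an alternative. The scripts were tested on simulated data. Samples pair by construction, and deviations of HS-38 and R1 in the same sample correlated at -0.05 to 0.08 over 802 fragments.

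Genes named were 13 listed genes of the locus, at most 3 others per direction with the smallest adjusted p, and at most 5 fragments per side and direction, beside those over 4 CTCF sites, called and of the same direction in all samples where chosen by p. Gene bodies are of GENCODE vM1. Members and lists were chosen with earlier results of these data known. Counts of 3C ligation junctions are not independent of digestion and capture, so error beyond counting is that between samples. The ∆44/48 samples of the same experiment entered only where they are named. The samples of the second experiment and the viewpoint HS-39, for which no counts were found here, were not used.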

Additional observations from a re-analysis of the deposited data

How the results depend on the processing

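With 1 sample left out, and thus 2 pairs, the calls were 0 to 97 fragments, 8 to 17 genes, 14 to 16 intervals and 8 to 11 distance classes. An adjusted p of 0.05 gave 332 fragments and 12 distance classes, and a minimum of 30 counts 335 fragments. DESeq2 called 161 fragments and 12 genes. Of the 11 listed genes called, *Hba-x* was not called by DESeq2 and *Hbq1b* was not called with R2 in place of R1. Without sample 1 *Hba-x*, *Hbq1b* and *Ubtd2* were not called, and without sample 3 *Nprl3* and *Hba-x* were not. All 11 were kept with TMM factors, with a wider excluded zone, without the replicate block and without sample 2. Without the replicate block 293 fragments, 26 genes, 15 intervals and 10 distance classes were called.

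The scale set the direction where differences were small. With DESeq2's size factors the log2 fold change turned to -0.55 far upstream, -0.56 from 0.25 to 1 Mb upstream, -0.13 between the viewpoints, -0.02 in the downstream flank and -0.23 from 0.25 to 1 Mb downstream. With TMM factors it turned to -0.30 and -0.31 in the first 2 of these, and with R2 in place of R1 to -0.0024 and -0.022. In the distance classes upstream from 640 kb outward it turned to -0.15, -0.10 and -0.22 with DESeq2 and to -0.19, -0.15 and -0.27 with TMM. Downstream it turned to -0.17, -0.0064 and -0.13 with DESeq2 and to -0.22, -0.055 and -0.17 with TMM, at 40 to 80, 640 to 1280 and 1280 to 5120 kb. Upstream beyond 5120 kb it was -0.043 with R2, -0.0020 without the blank stretches (an alternative chosen after seeing the data), and -0.0031 to 0.022 with 1 sample left out. With R2 *Hbq1a* turned to 0.30 and the θ2 fragment to 0.50, and without the stretches *Pnpt1* turned to -1.50. The cause was not tested.

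The difference between the viewpoints in the log2 ratio of downstream to upstream counts was -1.44 within 1 Mb, -0.92 with a wider excluded zone and -1.30 with R2. Within 1 Mb, distances that held 50 and 90% of the counts shortened to 27.2 and 391 kb upstream and 56.5 and 169 kb downstream of HS-38, and to 45.2 and 469 kb upstream and 34.2 and 74.0 kb downstream of R1. A wider zone moved the 50% distance upstream of HS-38 to 60.2 kb and the 90% distance downstream of R1 to 37029 kb. In the comparison with R2, the 50% distance downstream of HS-38 was 94.7 kb, and R2 had 555 and 25987 kb upstream and 36.2 and 37619 kb downstream. HS-39 in place of HS-38 was not run.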

Other observations

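A stretch about 0.4 Mb upstream of the locus stood out from the distance decay of both viewpoints, and was picked after its values were seen. The density of the upstream class from 320 to 640 kb exceeded that of the class from 160 to 320 kb, with 11.4, 12.2 and 12.0 against 6.92, 8.06 and 8.43 counts per kb per 100000 cis counts from HS-38, and 11.8, 13.0 and 13.1 against 5.26, 5.95 and 5.38 from R1. Among 180 bins of 10 kb that lay 100 kb to 1 Mb from the viewpoints and outside the TAD, the 5 densest from R1 all lay 360 to 430 kb upstream of HS-38. The densest of them (mm9, chr11:31738153-31747150) had 37.0, 36.9 and 38.2 from R1 and 19.2, 25.2 and 26.3 from HS-38. From HS-38 it ranked 4, behind 2 bins over *Sh3pxd2b* and 1 bin 100 to 110 kb upstream.

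The genes there were *Cpeb4*, which encodes a regulator of mRNA polyadenylation and translation, and the non-coding genes *Gm12107* and *D630024D03Rik*. *Cpeb4* had a density of 13.2 ± 0.99 from HS-38 and 13.5 ± 1.06 from R1 (SD, n = 3), with a log2 fold change of HS-38 over R1 of -0.03 (SE 0.08). *Gm12107* had 24.8 ± 2.85 and 31.5 ± 0.73, with -0.35 (SE 0.16), and *D630024D03Rik* had 15.8 ± 0.18 and 17.7 ± 1.57, with -0.16 (SE 0.09). None of the 3 was called by edgeR's quasi-likelihood test. R1 was the higher in 3 of 3 samples in the densest bin, at *Gm12107* and at *D630024D03Rik*, whereas HS-38 was the higher in 3 of 3 samples in the stretch to 0.25 Mb upstream.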
